A study of Mus musculus with 12 samples.

Results

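The comparison described here asks what moved in the RNA of Wdr62 knockdown cells once a WDR62 expression virus was added. It uses 8 of the 12 libraries of the series, the 4 labelled RE (re-expression) and the 4 labelled KD (knockdown), chosen by their group labels alone. HL-1, the cell type that the labels give throughout, is a cardiac muscle line of mouse atrial origin, and it was kept in DMEM containing fetal bovine serum. Several marker genes of that cell type, given below, did not bear out the label. KD cells (genotype WDR62-) carried a virus with a CRISPR/Cas9 guide to Wdr62. RE cells (genotype WDR62+) are that knockdown line after infection with pCDH-WDR62-WT-flag, a vector for tagged wild-type WDR62, so the guide virus is shared by both groups. The 4 control libraries (CON, genotype WT) came from cells with the empty pCDH and lentiCRISPRv2 viruses, and they are given beside the others. They also enter the expression filter and the estimate of the spread behind each limma p-value. The labels name no pCDH virus for KD, so a response to WDR62 and a response to that vector or to a further infection cannot be told apart between RE and KD. The labels do not say whether the KD cells were 1 clone or a pool, or whether the 4 libraries of a group were separate cultures, so each p-value reflects the variation among these libraries, which may be technical.

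WDR62 is a scaffold protein that sits at spindle poles and the centrosome during mitosis and binds kinases of the JNK pathway, and mutations in its gene are a known cause of microcephaly. The extracellular matrix, to which many of the genes below belong, is built from collagens, laminins, fibronectin and small leucine-rich proteoglycans, and is remodelled by secreted proteases. In the heart most matrix is made by fibroblasts, while cardiac muscle cells sit on a basement membrane rich in laminins.

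In RE the laminin chain Lama4, the proteoglycan Aspn and the protease Mmp3 were lower than in KD, by 4.14-fold, 4.26-fold and 5.18-fold in mean TPM (n = 4 libraries each). The Popeye genes Bves and Popdc3 were higher by 3.19-fold and 2.36-fold, and Igfbp5, whose secreted product binds IGF1 and IGF2, by 11.4-fold from a very low level. All 6 were called, with limma adjusted p from 0.00263 (Lama4) to 0.0307 (Igfbp5), and in each the RE libraries did not overlap the KD libraries. With RE 1 and RE 3 left out, Lama4 was still called (adjusted p = 0.0402) and the other 5 were not, at adjusted p from 0.0537 (Aspn) to 0.189 (Igfbp5). That fit kept all 4 control libraries. With the control library WT4 left out as well, calls over all genes went from 4 to 50. Mmp3 was also not called after scaling to library medians (adjusted p = 0.0626). Wdr62 itself was not called.

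Values are TPM, a unit in which each library sums to 1000000 transcripts, so read depth is unknown. Genes with a mean of at least 1 TPM over the 12 libraries were tested, 11774 of 23184, with limma on log2(TPM + 1), and a gene was called at a Benjamini-Hochberg adjusted p below 0.05 over all tested genes. Fold changes are log2 differences of RE minus KD on that scale, which understates changes of low genes.

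Wdr62 itself (ENSMUSG00000037020.16, chr7:30240138-30280419, minus strand, mm10) was not called between RE and KD. Its level was 1.40, 0.944, 1.37 and 0.881 TPM in KD 1 to KD 4, 1.47, 0.772, 0.826 and 1.99 TPM in RE 1 to RE 4 and 3.38 to 7.45 TPM in the control libraries. KD and RE overlapped, and both lay below every control library. The difference was 0.05 (SE 0.25, 95% interval -0.48 to 0.58, limma adjusted p = 0.895), and an exact two-sided permutation test gave p = 0.886, where 4 against 4 cannot go below 0.0286. The labels do not give the species or codons of the WDR62 sequence in the virus, so reads from that transcript may not count to the mouse gene. The row gives no check of the RE label, and RE below means the libraries labelled so.

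The labelled cell type was looked at through 13 cardiomyocyte markers. Actc1, Myl7 and Actn2, genes of the contractile apparatus, were listed at 0 in all 8 KD and RE libraries, and Myh6 and Nppa did not pass 0.209 and 0.443 TPM. Tnnt2, a troponin, had 15.7 ± 2.17 TPM in KD and 20.2 ± 4.27 TPM in RE (SD, n = 4 each), and the cardiac transcription factors Nkx2-5 and Gata4 were also detected. Actc1, Myl7, Actn2, Myh6 and Nppa, at or near 0, went against the labelled cell type. The fibroblast collagen Col3a1 was at 1190 to 3455 TPM in KD and RE. HL-1 in this text is therefore the name in the labels only. Of the 13, 4 were tested and none was called by limma (smallest adjusted p 0.2, Nkx2-5; 0 at an unadjusted p below 0.05). Endothelial markers summed to 1.02 to 2.07 TPM in KD and 0.349 to 1.67 TPM in RE. Of 12 macrophage and leukocyte markers, Adgre1, Tyrobp and C1qa were at 0 in all 8 libraries and Ptprc did not pass 0.0434 TPM, while Cd14 was at 161 to 247 TPM, Cd68 at 6.01 to 13.2 TPM and Lyz2 at 5.33 to 13.5 TPM. These 3 were the ones tested and none was called by limma (0 at an unadjusted p below 0.05), and the list summed to 221 to 253 TPM in KD and 176 to 271 TPM in RE. Of all tested genes only 1.04% were called, so lists this short say little. In bulk samples such as these, fewer cells of a type and less RNA per cell cannot be told apart.

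The libraries also differed by transcript length. Genes were split into 5 equal bins by the longest annotated transcript, and the median fold change of RE against KD fell from 0.17 in the shortest bin to -0.13, -0.30, -0.46 and -0.72 in the longest. Long transcripts were low in RE 1 and RE 3, with the longest bin at -0.72 and -0.99 from the gene means, against -0.11 in RE 2 and -0.13 in RE 4. KD 1 and KD 2 lay on the other side, at 0.56 and 0.54. Of the control libraries WT4 was at -0.82 in that bin and the others at 0.46 to 0.70, and all 4 enter the fit and the control ranges given below. The cause of this split was not tested. Over all tested genes the median fold change was -0.29. Scaling each library to the median of all genes raised every fold change by 0.36, to a median of 0.07, and a loess correction on transcript length (11707 genes with a length) brought it to 0.01. Of the 49 named genes other than Wdr62, 14 were called on all 3 scales, 35 were not called after median scaling, and 17 of those 35 were not called after the length correction either.

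**Figure D1:**
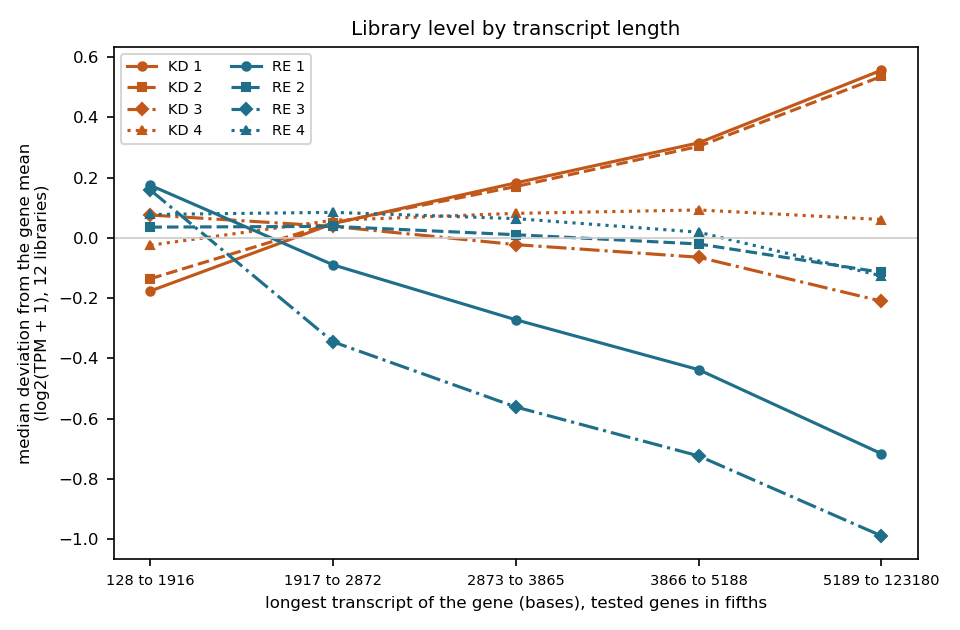
Median deviation of each KD (orange) and RE (blue) library from the gene means over 12 libraries, on the log2(TPM + 1) scale (y axis), for tested genes in 5 bins of transcript length in bases (x axis). RE 1 and RE 3 fall to -0.72 and -0.99 in the longest bin while RE 2 and RE 4 stay at -0.11 and -0.13, and KD 1 and KD 2 rise to 0.56 and 0.54.

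Between RE and KD, 22 genes were higher in RE (0.187% of 11774) and 101 were lower (0.858%), together 123 (1.04%). In all 123 the 4 RE libraries lay wholly above or below the 4 KD libraries. Such separation was wider than the calls: 408 tested genes (3.47%) were higher without overlap and 1273 (10.8%) lower. At an unadjusted p below 0.05 there were 749 higher and 2549 lower genes of the 11774. List counts at that threshold are to be read beside these. After median scaling 19 genes were higher (0.161%) and 22 lower (0.187%), so the split moved from 101 lower of 123 to 22 lower of 41. After the length correction 113 were higher (0.965%) and 124 lower (1.06%). Only 24 genes were called on all 3 scales, 6 higher (4930550L24Rik, Bves, H19, Igfbp5, Popdc3 and Prl2c4) and 18 lower, among them Lama4, Aspn, Ogn, Col12a1, Fn1, Thbs3, Sulf2, Nr4a2 and Nkd2. With KD and RE libraries only in the fit, 49 genes were called, and 29 of the 50 named genes lost their call. With RE 1 and RE 3 left out, 4 genes were called (4930550L24Rik and Gm3776 higher, Lama4 and Oas1g lower). All 49 named genes other than Wdr62 kept their sign there, as groups without overlap must, and 1 of them, Lama4, was called. With WT4 left out as well, 18 of the 50 named genes, counting Wdr62, kept their main result as called or not called. With WT4 kept, 2 did. 4930550L24Rik, Gm3776, Oas1g and Prl2c4 fall outside the naming rule and were picked after their values were seen.

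**Figure D2:**
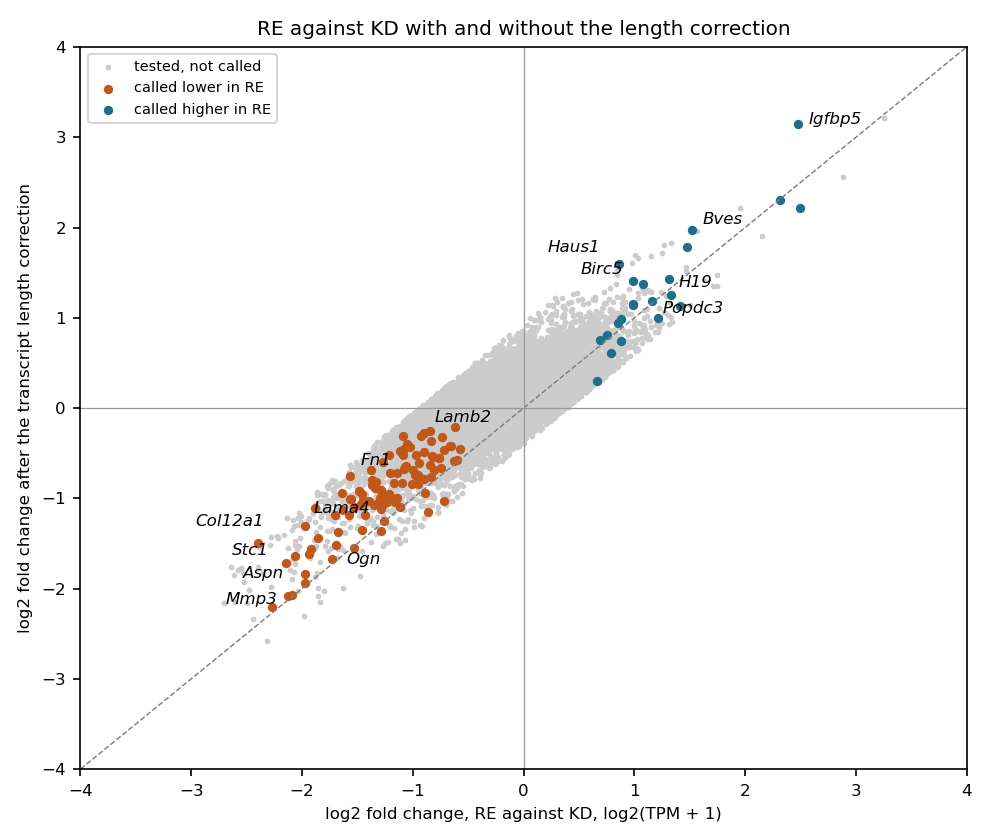
Log2 fold change of RE against KD on log2(TPM + 1) (x axis) and after the transcript length correction (y axis), each point a tested gene with a length, grey where not called, orange where called lower and blue where called higher on the x axis scale, with the dashed line marking equal values. Lamb2 moves from -0.90 to -0.27 and Fn1 from -1.56 to -0.75, while Mmp3 and Aspn stay near the line at -2.07 and -1.84, and Igfbp5 is at 3.15.

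The 2 Popeye genes Bves and Popdc3, which encode cyclic AMP binding membrane proteins of heart and skeletal muscle, were higher in RE. Bves (ENSMUSG00000071317.4, chr10:45335772-45372479, plus strand) had 5.14, 4.47, 7.08 and 4.28 TPM in KD 1 to KD 4 and 16.7, 15.7, 15.1 and 19.4 TPM in RE 1 to RE 4. Every RE library was above every KD library, and both groups were below the control libraries at 40.8 to 65.2 TPM. The rise was 3.19-fold in mean TPM (log2 fold change 1.52, SE 0.20, adjusted p = 0.00611), with 1.88 (adjusted p = 0.00179) after median scaling and 1.97 (adjusted p = 0.0016) after the length correction. Popdc3 (chr10:45178098-45318452, plus strand) had 11.7, 12.1, 14 and 14 TPM in KD 1 to KD 4 and 34.5, 33.8, 22 and 31.9 TPM in RE 1 to RE 4, against 52.2 to 83.3 TPM in the control libraries. The groups did not overlap, and RE 3 was the lowest RE library (log2 fold change 1.16, SE 0.20, adjusted p = 0.026; 1.52, adjusted p = 0.00179 after median scaling). Popdc3 and Bves are neighbours on chromosome 10, both on the plus strand and 17320 bases apart, while Prep on the other side of Popdc3 was at -0.46 (adjusted p = 0.43). Against CON, where KD differed at 1202 genes (10.2% of those tested), Bves was at -3.10 (adjusted p = 1.04e-06) in KD and -1.58 (adjusted p = 0.000309) in RE, 2 comparisons that share the control libraries. Neither was called without RE 1 and RE 3, when Bves was at 1.58 (adjusted p = 0.0748) and Popdc3 at 1.28 (adjusted p = 0.0959).

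They were the called members, 2 of 8 tested, in a list of cardiac ion channel, calcium handling and Popeye genes whose median was -0.39, beside -0.29 over all genes. Of all tested genes 0.187% were called higher. Kcnj2, an inward rectifier potassium channel, had 72.6, 70.9, 28.3 and 47.7 TPM in KD 1 to KD 4 and 12.2, 25.2, 16.3 and 22 TPM in RE 1 to RE 4. The groups did not overlap, and the gene was called after the length correction (-0.84, adjusted p = 0.0405) but not on the TPM scale (-1.44, adjusted p = 0.0697). Atp2a2, the calcium pump of the sarcoplasmic reticulum, had a mean of 253 ± 88.3 TPM in KD and 131 ± 60.6 TPM in RE (SD, n = 4 each; adjusted p = 0.19). None of the 7 tested sarcomere genes, 12 cardiac transcription factors or 10 skeletal muscle genes was called by limma. With 1.04% of all tested genes called, this does not set such short lists apart. At an unadjusted p below 0.05, 1 sarcomere gene and 6 of the transcription factors were lower, and 1 skeletal muscle gene was higher. Over all 11774 genes 2549 were lower and 749 higher at that threshold.

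Igfbp5 encodes a secreted protein that binds insulin-like growth factors, and it had the largest rise of the named genes. Its level (ENSMUSG00000026185.8, chr1:72857932-72874884, minus strand) was 1.14, 1.15, 0.317 and 0.917 TPM in KD 1 to KD 4 and 5.10, 16.2, 11 and 8.03 TPM in RE 1 to RE 4. All RE libraries were above all KD libraries, and both were far below the control libraries at 158 to 624 TPM. The rise was 11.4-fold in mean TPM (log2 fold change 2.48, SE 0.44, adjusted p = 0.0307), with 2.84 (adjusted p = 0.00341) after median scaling and 3.15 (adjusted p = 0.000579) after the length correction. H19, an imprinted long noncoding RNA expressed in embryonic muscle, had 2.70, 3.37, 3.53 and 2.99 TPM in KD 1 to KD 4 and 8.41, 12.8, 9.57 and 7.0 TPM in RE 1 to RE 4 and 42.6 to 103 TPM in the control libraries. It too rose without overlap (log2 fold change 1.31, SE 0.27, adjusted p = 0.0426), from a KD level far under the controls. With RE 1 and RE 3 left out, Igfbp5 was at 2.75 (adjusted p = 0.189) and H19 at 1.35 (adjusted p = 0.345).

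Glrx3, a cytosolic monothiol glutaredoxin, had 2.14, 2.46, 2.85 and 2.33 TPM in KD 1 to KD 4 and 7.75, 5.84, 13.3 and 8.70 TPM in RE 1 to RE 4, with 3.88 to 7.62 TPM in the control libraries. RE 3 was the highest and RE 2 the lowest of the RE libraries, and none overlapped KD (log2 fold change 1.47, SE 0.24, adjusted p = 0.0236; adjusted p = 0.0622 after median scaling). H2-DMb2, a subunit of the class II peptide loading complex with a near-identical neighbour H2-DMb1 between which reads may be split, had 10.8, 11.4, 15.9 and 16.1 TPM in KD 1 to KD 4 and 24, 49.8, 48.5 and 26.1 TPM in RE 1 to RE 4. RE 1 and RE 4 were about level with each other and below RE 2 and RE 3, and the control libraries were at or under 0.364 TPM (log2 fold change 1.33, SE 0.27, adjusted p = 0.0409; adjusted p = 0.0626 after median scaling). This gene was therefore higher in KD than in CON and higher again in RE.

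The upstream sequence of 2 of these genes is shown because they are the largest named rises with an entry. Each is the 250 bases before the RefSeq start on GRCm38.p6 (the mm10 assembly), 5′ to 3′ on the gene's strand, for Igfbp5 at chr1:72874866-72875115, minus strand and for Glrx3 at chr7:137437323-137437572, plus strand. Capitals mark matches, on either strand, to the motifs searched. These were AP-1 with the letters TGANTCA, the half-site of the cyclic AMP response element with TGACG, the E-box with CANNTG, the TATA box with TATAAA, the CCAAT box with the letters of its name, and the TEAD motif with GGAATG. A match is a description of the letters, not a bound site.
Igfbp5: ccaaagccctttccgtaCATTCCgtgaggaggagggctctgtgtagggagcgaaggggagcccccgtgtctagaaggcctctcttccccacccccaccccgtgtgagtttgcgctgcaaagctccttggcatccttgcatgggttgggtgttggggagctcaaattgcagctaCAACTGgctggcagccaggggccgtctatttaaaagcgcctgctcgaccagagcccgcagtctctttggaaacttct
Glrx3: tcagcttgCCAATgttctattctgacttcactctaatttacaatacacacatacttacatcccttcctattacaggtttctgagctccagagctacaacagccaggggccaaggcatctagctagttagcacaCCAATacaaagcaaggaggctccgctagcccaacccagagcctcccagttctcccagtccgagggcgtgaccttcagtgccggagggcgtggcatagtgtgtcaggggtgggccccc
In Igfbp5 the capitals are a TEAD match at -233 to -228 and an E-box at -77 to -72, counted back from the start. In Glrx3 they are 2 CCAAT boxes at -242 to -238 and -117 to -113. Of 32851 RefSeq promoters of the same length, 12.64% held the TEAD letters, 66.22% an E-box and 33.85% a CCAAT box.

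Several genes of cell division were among the rises. Birc5 (survivin, a subunit of the chromosomal passenger complex of mitosis) had 135, 125, 213 and 157 TPM in KD 1 to KD 4 and 422, 246, 292 and 372 TPM in RE 1 to RE 4. Tk1, thymidine kinase of the S phase, had 79.1, 64, 105 and 94.7 TPM in KD 1 to KD 4 and 225, 129, 151 and 180.1 TPM in RE 1 to RE 4. For both genes RE 1 and RE 4 were the highest RE libraries, RE 2 was the lowest, and no RE library fell to the level of KD. Birc5 rose 2.12-fold (log2 fold change 1.08, SE 0.21, adjusted p = 0.0376) and Tk1 2.0-fold (log2 fold change 0.99, SE 0.19, adjusted p = 0.0376). The 2 are neighbours on chromosome 11, 23159 bases apart, and Tk1 shares 83 exon bases with Afmid (17.7 TPM) on the opposite strand. Both remained called after the length correction (adjusted p = 0.0408 and 0.0296) and not after median scaling (adjusted p = 0.081 and 0.076), where the fold changes were larger. They were at 0.97 (adjusted p = 0.345) and 0.85 (adjusted p = 0.333) when RE 1 and RE 3 were left out.

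H2afz, a histone H2A variant, had 83.9, 84.7, 129.8 and 117 TPM in KD 1 to KD 4 and 265, 156, 311 and 251 TPM in RE 1 to RE 4. RE 2 was the lowest RE library and still above KD 3 (log2 fold change 1.22, SE 0.24, adjusted p = 0.0376). Cenpw, a kinetochore protein, rose from 7.53 ± 1.48 to 15.9 ± 2.68 TPM (SD, n = 4 each; adjusted p = 0.0423), and Ahcy, which hydrolyses S-adenosylhomocysteine, from 16.3 ± 3.29 to 33.2 ± 6.53 TPM (adjusted p = 0.0376). Naa10, an amino-terminal acetyltransferase, rose from 91.3 ± 16.1 to 170.0 ± 35.8 TPM (adjusted p = 0.0423). Mrpl12, a protein of the mitochondrial ribosome, rose from 191 ± 38.4 to 353 ± 75.3 TPM (adjusted p = 0.0464). Esd, the abundant esterase D, had 503, 461, 578 and 533 TPM in KD 1 to KD 4 and 882, 822, 763 and 888 TPM in RE 1 to RE 4, a narrow spread in both groups with no overlap (log2 fold change 0.69, SE 0.11, adjusted p = 0.0156). After median scaling none of H2afz, Cenpw, Ahcy, Naa10, Mrpl12 and Esd was called (adjusted p from 0.0622 for Esd to 0.0847 for Mrpl12), and after the length correction all but Cenpw (adjusted p = 0.054) were. In these 6 genes the RE mean was above the mean of the control libraries, which for Esd were at 768 to 839.8 TPM.

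Across the list of 45 DNA replication and S phase genes, 1 was called higher (Tk1) and none lower, beside 0.187% and 0.858% of all genes. At an unadjusted p below 0.05, 12 were higher and 0 lower, beside 749 and 2549 of all 11774. The list's median was 0.46, 0.82 after median scaling and 0.73 after the length correction, beside -0.29, 0.07 and 0.01 for all tested genes, and 40 of the 45 fold changes were above 0, beside 3298 of 11774. The RE libraries were uneven, as the list summed to 1753 to 2482 TPM in KD and 1620 to 4470 TPM in RE, ranges that overlap. Of the 45, 2 were higher without overlap, beside 3.47% of all tested genes. Pcna, the sliding clamp of DNA polymerase, had 71.9 ± 30.5 TPM in KD and 134 ± 59 TPM in RE, and Mcm7 of the replicative helicase 52.8 ± 14.1 and 99.3 ± 49.3 TPM (SD, n = 4 each; adjusted p = 0.15 and 0.17). Neither passed the test. After the length correction 4 of 45 were higher (Rfc2, Tyms, Tk1 and Dut), beside 0.965% of all genes on that scale. None was called without RE 1 and RE 3, and the median was then 0.70.

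In the list of 45 spindle, kinetochore and mitotic kinase genes, 1 was higher (Birc5) and none lower, beside 0.187% and 0.858% of all genes, with a median of 0.20. After the length correction 5 were higher (Kif4, Spc24, Birc5, Cdca8 and Pttg1), beside 0.965% of all genes on that scale, and the list's median was 0.49. Pttg1, the securin that holds back chromosome separation, had a mean of 401 ± 113 TPM in KD and 669.5 ± 88.4 TPM in RE (SD, n = 4 each; adjusted p = 0.074 on the TPM scale). Replication-dependent histone genes, whose mRNAs mostly lack poly(A) tails and which serve as a sign of RNA selection, summed to 229.8 to 557 TPM in KD and 222 to 507 TPM in RE. None of the 37 tested was called by limma (2 higher at an unadjusted p below 0.05). Their median was 0.45 on TPM, near the 0.46 of the replication list, but 0.21 after the length correction, beside 0.73 for that list. Any part of RNA selection in the replication result was not tested.

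WDR62's own class, 41 tested centrosome, augmin and microcephaly genes, had 1 member higher and none lower, beside 0.187% and 0.858% of all genes. That gene was Haus1, a subunit of the augmin complex that branches spindle microtubules, with 30.5, 29, 38.9 and 36.6 TPM in KD 1 to KD 4 and 68.8, 51.2, 57.2 and 70.8 TPM in RE 1 to RE 4 (log2 fold change 0.86, SE 0.15, adjusted p = 0.03). The groups did not overlap and the RE range included the control libraries at 58.9 to 67.2 TPM. Haus1 shares 129 exon bases on the opposite strand with Atp5a1 (a mean of 607 TPM), and no source used here states whether counting used strand, so their reads may not be separable. The list's median changed sign with the scale, from -0.36 on TPM to 0.00 after median scaling and 0.21 after the length correction. After that correction Haus4, Haus8 and Poc1a were called higher, beside 0.965% of all genes on that scale, and Haus1 just missed (adjusted p = 0.0513, and 0.0542 after median scaling). Aspm, another spindle pole protein of microcephaly, had 8.95 ± 2.75 TPM in KD and 6.79 ± 3.71 TPM in RE (SD, n = 4 each; adjusted p = 0.54).

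Lama4, the laminin alpha 4 chain of basement membranes, was called lower in RE in 26 of the 27 fits run, more than any other named gene. Its fold change was below 0 in all 27, which groups without overlap make certain for the fits that leave libraries out. Its level (ENSMUSG00000019846.11, chr10:38965515-39110188, plus strand) was 58.2, 60.8, 41.2 and 44.5 TPM in KD 1 to KD 4 and 8.63, 15.4, 12.4 and 13 TPM in RE 1 to RE 4. The groups were far apart, RE 1 was the lowest, and the control libraries lay between them at 21.5 to 30.8 TPM. The fall was 4.14-fold in mean TPM (log2 fold change -1.97, SE 0.21, adjusted p = 0.00263), with -1.61 (adjusted p = 0.00179) after median scaling and -1.30 (adjusted p = 0.0175) after the length correction. Against CON, the KD libraries were at 0.87 (adjusted p = 0.0176) and the RE libraries at -1.10 (adjusted p = 0.00656). It stayed called without RE 1 and RE 3, at -1.76 (adjusted p = 0.0402).

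Of 22 tested basement membrane genes, 4 were lower (Lama4, Lamb2, Col18a1 and Sparc) and none higher, beside 0.858% of all tested genes lower. The list's median was -0.95. Col18a1, the collagen from which endostatin is cut, had 140.4, 144, 135 and 119 TPM in KD 1 to KD 4 and 57.6, 85.4, 60.2 and 81.2 TPM in RE 1 to RE 4, and Lamb2, the laminin beta 2 chain, had 94.1, 90.1, 83.9 and 71.1 TPM in KD 1 to KD 4 and 45.2, 40.3, 38.9 and 56.9 TPM in RE 1 to RE 4. Neither overlapped between groups (-0.93 (adjusted p = 0.0409) and -0.90 (adjusted p = 0.0311)). Sparc, an abundant collagen-binding glycoprotein, had 3182, 3334, 4029 and 3323 TPM in KD 1 to KD 4 and 2104, 2380.1, 2429 and 2366 TPM in RE 1 to RE 4, a smaller fall (-0.58 (adjusted p = 0.0479)). These genes are long, with a list median of 5915 bases, beside 3346 for tested genes. After the length correction the list's median was -0.27 and Lama4 alone was called, as after median scaling (adjusted p = 0.0638, 0.101 and 0.61 for Col18a1, Lamb2 and Sparc). The collagen IV chains Col4a1 (265 ± 58.9 TPM in KD, 133 ± 50.8 TPM in RE) and Col4a2 (257 ± 45.3 and 125 ± 40.3 TPM; SD, n = 4 each) did not pass (adjusted p = 0.13 and 0.082).

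The small leucine-rich proteoglycans, short secreted proteins that bind collagen fibrils and growth factors, had 4 of 8 tested members lower and none higher. This stands beside 0.858% of all tested genes lower. All 8 fold changes were below 0 on the TPM scale and after the length correction. Aspn, asporin (ENSMUSG00000021388.14, chr13:49544443-49567565, plus strand), had 39.7, 40.5, 25.6 and 26.3 TPM in KD 1 to KD 4 and 4.60, 8.83, 10.02 and 7.51 TPM in RE 1 to RE 4. RE 1 was the lowest library, the groups were apart, and the control libraries, at 7.56 to 10.1 TPM, overlapped RE. The fall was 4.26-fold (log2 fold change -1.97, SE 0.24, adjusted p = 0.00509), with -1.61 (adjusted p = 0.0224) after median scaling and -1.84 (adjusted p = 0.00385) after the length correction. Ogn, osteoglycin (chr13:49608046-49624501, plus strand), had 229, 222, 136 and 169 TPM in KD 1 to KD 4 and 44.5, 61, 51.5 and 73.1 TPM in RE 1 to RE 4. The groups were again apart, with the control libraries, at 52.6 to 85.6 TPM, overlapping RE. It fell 3.28-fold (log2 fold change -1.69, SE 0.22, adjusted p = 0.00611), with -1.33 (adjusted p = 0.00179) after median scaling and -1.52 (adjusted p = 0.00175) after the length correction. Leaving out RE 1 and RE 3 gave -1.86 (adjusted p = 0.0537) for Aspn and -1.45 (adjusted p = 0.123) for Ogn.

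Bgn, biglycan, had 42.1, 44.5, 36 and 36.1 TPM in KD 1 to KD 4 and 18.9, 20.3, 20.5 and 19.9 TPM in RE 1 to RE 4, with little spread in RE and no overlap (log2 fold change -0.95, SE 0.16, adjusted p = 0.0236), with -0.59 (adjusted p = 0.0847) after median scaling and -0.77 (adjusted p = 0.0174) after the length correction. The control libraries, at 40.5 to 59.9 TPM, overlapped KD and lay above RE. Ecm2, a matrix protein of the same family, was low throughout, at 2.17 to 3.91 TPM in KD and 0.610 to 1.27 TPM in RE (-1.08 (adjusted p = 0.0297)), and was not called after either correction (adjusted p = 0.107 and 0.302). Dcn, decorin, had 5.05 ± 0.866 TPM in KD and 3.20 ± 0.659 TPM in RE (SD, n = 4 each; adjusted p = 0.27). Lum, Kera and Epyc were listed at 0 in all 8 libraries.

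Ecm2, Aspn, Omd and Ogn lie in a row on the plus strand of chromosome 13. Ecm2 and Aspn are 11654 bases apart and Aspn and Ogn 40481, with Omd (osteomodulin, -0.54, adjusted p = 0.167) between them. Neighbours outside the row were not called, Ippk at -0.60 (adjusted p = 0.215) and Nol8 at -0.71 (adjusted p = 0.248). Beyond them Bicd2 was at -0.74 (adjusted p = 0.144) and Iars at -1.02 (adjusted p = 0.226). All of these were further below 0 than Omd, and Iars was near Ecm2 (-1.08). Cenpp runs across the row on the opposite strand, shares 7 exon bases with Aspn and was at 0.23 (adjusted p = 0.501). Among the 123 called genes, 11 pairs of next neighbours lay within 200000 bases of each other, with genes in a row of called genes entering more than 1 pair. The same count was not made for all tested genes, so it does not show whether 11 is many or few. The pairs included C1ra, C1s1 and C1rb on chromosome 6, Snrpn and Snurf on chromosome 7 with a gap of 0 bases, and Ly6c1 and Ly6c2 on chromosome 15. L1cam and Naa10 on chromosome X were a pair in opposite directions.

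The upstream sequences of Aspn and Ogn are shown as the called neighbours of that row, with Mmp3 and Ptx3 beside them as short secreted-protein genes among the largest falls. Aspn, Ogn and Mmp3 were picked after their values were seen, and Ptx3 by the rule. The windows are the 250 bases before the RefSeq start (GRCm38.p6), at chr13:49544193-49544442, plus strand for Aspn, chr13:49607765-49608014, plus strand for Ogn, chr9:7445572-7445821, plus strand for Mmp3 and chr3:66219637-66219886, plus strand for Ptx3, with capitals for the same motifs as above.
Aspn: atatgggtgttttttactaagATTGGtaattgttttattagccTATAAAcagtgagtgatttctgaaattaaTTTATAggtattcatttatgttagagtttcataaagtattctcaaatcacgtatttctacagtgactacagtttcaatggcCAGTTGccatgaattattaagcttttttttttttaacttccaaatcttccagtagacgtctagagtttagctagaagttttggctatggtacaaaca
Ogn: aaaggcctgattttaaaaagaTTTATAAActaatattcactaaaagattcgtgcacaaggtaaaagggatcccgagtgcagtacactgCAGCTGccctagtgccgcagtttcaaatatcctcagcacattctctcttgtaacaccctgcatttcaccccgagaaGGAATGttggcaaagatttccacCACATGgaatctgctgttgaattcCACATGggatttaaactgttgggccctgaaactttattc
Mmp3: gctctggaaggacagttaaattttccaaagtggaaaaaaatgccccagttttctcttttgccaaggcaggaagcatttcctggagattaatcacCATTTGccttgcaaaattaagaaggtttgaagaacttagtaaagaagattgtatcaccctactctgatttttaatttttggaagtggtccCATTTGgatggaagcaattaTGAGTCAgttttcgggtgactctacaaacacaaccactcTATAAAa
Ptx3: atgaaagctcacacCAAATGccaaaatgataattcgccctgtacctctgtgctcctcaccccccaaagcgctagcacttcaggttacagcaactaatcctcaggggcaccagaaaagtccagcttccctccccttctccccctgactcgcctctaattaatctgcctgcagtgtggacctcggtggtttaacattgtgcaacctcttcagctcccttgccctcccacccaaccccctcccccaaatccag
Mmp3 has the AP-1 letters at -46 to -40, found in 6.749% of all promoters, and a TATA box at -7 to -2. Aspn has 2 TATA matches at -207 to -202 and -178 to -173, a CCAAT box at -229 to -225 and an E-box at -97 to -92. Ogn has 3 E-boxes, the nearest at -39 to -34, a TEAD match at -86 to -81 and 2 overlapping TATA matches at -229 to -222. Ptx3 has 1 E-box at -236 to -231. Among the 12 largest falls, 9 had an entry and 4 of these held a TATA match, beside 0 of 9 among the 12 largest rises and 12.37% of all promoters. For the CCAAT box the counts were 3 of 9 and 6 of 9.

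Mmp3, stromelysin 1, a protease that cuts many matrix proteins, had 17.9, 23.3, 41.6 and 17.7 TPM in KD 1 to KD 4 and 3.46, 5.62, 4.93 and 5.36 TPM in RE 1 to RE 4. KD 3 was the highest library, RE 1 the lowest, and the groups were apart. The control libraries, at 2.72 to 5.53 TPM, overlapped RE. It fell 5.18-fold in mean TPM (log2 fold change -2.09, SE 0.29, adjusted p = 0.00862), with -1.73 (adjusted p = 0.0626) after median scaling and -2.07 (adjusted p = 0.00385) after the length correction. It was the called member of 21 tested matrix proteases and inhibitors (0.858% of all tested genes were called lower), whose median was -0.65 and -0.34 after the length correction. Timp3, an inhibitor of such proteases, had 47.7 ± 27.1 TPM in KD and 11.1 ± 3.42 TPM in RE (SD, n = 4 each) and was called only after the length correction (adjusted p = 0.051 on the TPM scale, 0.028 after it). Timp1 had 1246 ± 432 TPM in KD and 1795 ± 287 TPM in RE (adjusted p = 0.2). Mmp3 was at -1.92 (adjusted p = 0.163) without RE 1 and RE 3.

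Of 28 tested fibrillar collagen and cross-linking genes, 4 were lower (Col12a1, Col1a1, Col1a2 and Plod1) and none higher, beside 0.858% of all tested genes lower. The median was -0.65, beside -0.29 for all tested genes, with no fold change above 0. After the length correction it was -0.13, beside 0.01 for all genes, and 10 of the 28 were above 0. Col12a1, a collagen that decorates fibrils (ENSMUSG00000032332.17, chr9:79598991-79718831, minus strand), had 283, 351, 134 and 135 TPM in KD 1 to KD 4 and 24, 63.2, 28.8 and 49.2 TPM in RE 1 to RE 4. KD 1 and KD 2 were well above KD 3 and KD 4, RE 1 and RE 3 were the lowest, and all KD libraries were above all RE libraries. It fell 5.47-fold in mean TPM (log2 fold change -2.39, SE 0.47, adjusted p = 0.0376), with -2.03 (adjusted p = 0.0262) after median scaling and -1.49 (adjusted p = 0.0016) after the length correction, and without RE 1 and RE 3 it was at -1.87 (adjusted p = 0.415). Its transcript, 11511 bases, is in the longest bin.

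The type I collagen chains fell together, Col1a1 with 64.4, 63.7, 61.8 and 41.8 TPM in KD 1 to KD 4 and 21, 33.5, 28.6 and 26.5 TPM in RE 1 to RE 4 and Col1a2 with 707, 704, 679 and 600.0 TPM in KD 1 to KD 4 and 313, 437, 320.5 and 438 TPM in RE 1 to RE 4. No library overlapped (-1.05 (adjusted p = 0.0311) and -0.85 (adjusted p = 0.0416)), and both were lost after median scaling (adjusted p = 0.094 and 0.09) and after the length correction (-0.39 and -0.26, adjusted p = 0.333 and 0.297). Plod1, which hydroxylates collagen lysines, went from 198 ± 14.1 to 129 ± 15.8 TPM (SD, n = 4 each; -0.62 (adjusted p = 0.0479)), and was not called at -0.26 (adjusted p = 0.249) after median scaling and -0.21 (adjusted p = 0.35) after the length correction. Beside these genes the fibroblast marker list, which shares Col1a1 and Col1a2 with them, had 10 of 13 members tested and 2 called lower (7 lower and 0 higher at an unadjusted p below 0.05). Its median was -0.82, beside -0.29 for all tested genes, and -0.26 after the length correction, with 1 of 10 fold changes above 0 (S100a4) and 6 members lower without overlap. Of all tested genes 0.858% were called lower and 10.8% were lower without overlap. The list summed to 24875 to 36329 TPM in KD and 28562 to 37324 TPM in RE, most of it S100a4 at up to 35663 TPM. Its members Lum and Tcf21 were at 0 in all 8 libraries and Thy1 did not pass 0.072 TPM. Other members were well expressed, Col3a1 at 1190 to 3455 TPM and Pdgfrb at 38.8 to 121 TPM over KD and RE. Pdgfra had 70.5, 73.2, 44.2 and 51.7 TPM in KD 1 to KD 4 and 21.6, 42.6, 16.7 and 38.8 TPM in RE 1 to RE 4. The part of these markers in the matrix result was not tested.

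Of 25 tested matricellular and elastic fibre genes, 2 were lower, Fn1 and Thbs3, beside 0.858% of all tested genes, with a list median of -0.63. After the length correction that median was -0.12, beside 0.01 for all genes. Fn1, fibronectin, had 2402, 2376, 1255 and 1402 TPM in KD 1 to KD 4 and 461, 772, 483 and 761 TPM in RE 1 to RE 4. RE 1 and RE 3 were lowest in their group, KD 3 and KD 4 lowest in theirs, and there was no overlap. It fell 3.0-fold in mean TPM (log2 fold change -1.56, SE 0.33, adjusted p = 0.0467), and the control libraries, at 984 to 2502 TPM, overlapped KD. After the length correction it was at -0.75 (adjusted p = 0.0133), and without RE 1 and RE 3 at -1.21 (adjusted p = 0.464). Thbs3, a thrombospondin that overlaps Mtx1 on the opposite strand, went from 30.9 ± 4.38 to 14.2 ± 2.57 TPM (SD, n = 4 each; -1.07 (adjusted p = 0.0349)). Itga10, a collagen-binding integrin chain, had 17.8, 22.1, 18 and 17.4 TPM in KD 1 to KD 4 and 4.10, 6.92, 7.24 and 5.12 TPM in RE 1 to RE 4, apart in all libraries (log2 fold change -1.56, SE 0.21, adjusted p = 0.00722), and was the called one of 14 integrins, beside 0.858% of all tested genes. It was not called after median scaling or the length correction (adjusted p = 0.0833 and 0.118), and after the latter Itgb7 was the integrin called, higher. L1cam, a neural cell adhesion molecule, had 29.96, 28.5, 14.9 and 21.4 TPM in KD 1 to KD 4 and 4.14, 13.1, 8.42 and 6.72 TPM in RE 1 to RE 4, with RE still above the control libraries at 1.71 to 3.15 TPM (-1.49 (adjusted p = 0.0479)). L1cam was not called after median scaling or the length correction (adjusted p = 0.081 and 0.0789).

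**Figure D3:**
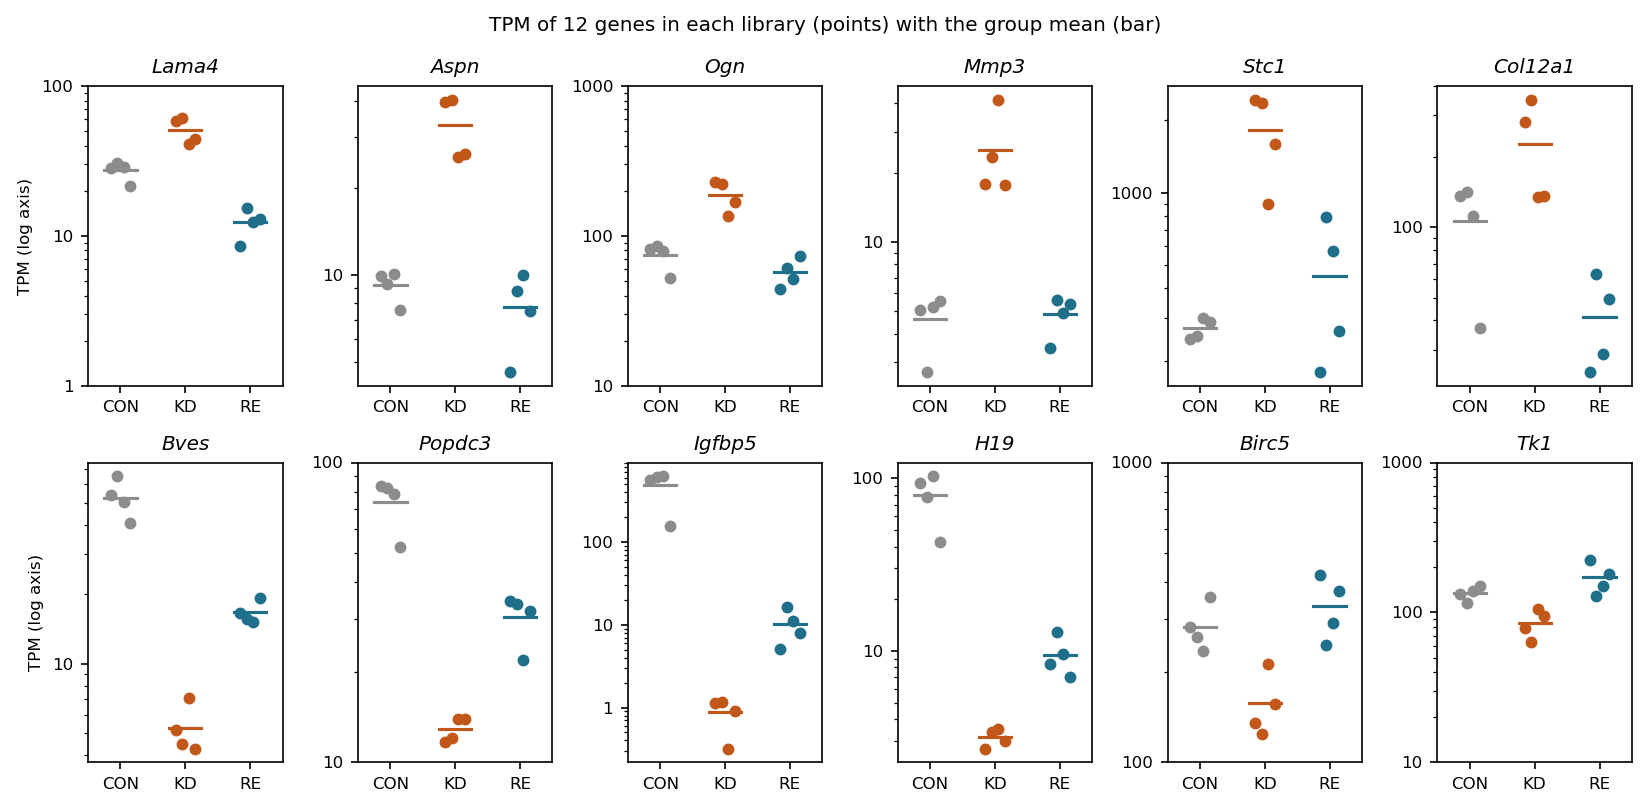
TPM (y axis, log scale) of 12 genes in the CON, KD and RE libraries (x axis), a point per library and a bar at the mean of the 4. Lama4, Aspn, Ogn, Mmp3, Stc1 and Col12a1 lie lower in RE than in KD, and Bves, Popdc3, Igfbp5, H19, Birc5 and Tk1 higher, with no overlap between those 2 groups, while Igfbp5 in RE (5.10 to 16.2 TPM) stays far under CON (158 to 624 TPM).

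Stc1, stanniocalcin 1, a secreted glycoprotein hormone, was the most abundant of the 12 largest falls. Its level (ENSMUSG00000014813.9, chr14:69029238-69041804, plus strand) was 2433, 2363, 893 and 1597 TPM in KD 1 to KD 4 and 179, 790.1, 570.0 and 266 TPM in RE 1 to RE 4. The groups nearly met, at KD 3 and RE 2, and the control libraries, at 247 to 301 TPM, lay within the RE range. It fell 4.04-fold in mean TPM (log2 fold change -2.14, SE 0.43, adjusted p = 0.0397), with -1.78 (adjusted p = 0.0833) after median scaling and -1.72 (adjusted p = 0.0629) after the length correction. It was called in 9 of the 27 fits, and without RE 1 and RE 3 it was at -1.88 (adjusted p = 0.309). In the insulin-like growth factor list, where Stc1 stands for its action on the binding protein protease, 2 of 12 tested genes were lower (Stc1 and Igfbp4) and 1 higher (Igfbp5), beside 0.858% and 0.187% of all tested genes. Igfbp4 had 126, 127, 173 and 148 TPM in KD 1 to KD 4 and 45.1, 54.7, 84.7 and 39.1 TPM in RE 1 to RE 4 with no overlap (-1.39 (adjusted p = 0.033)), but was not called at -1.03 (adjusted p = 0.142) after median scaling and -1.03 (adjusted p = 0.142) after the length correction. Igfbp7, with 1617 ± 82.2 TPM in KD and 1247 ± 219 TPM in RE, was called lower only after the length correction (adjusted p = 0.030), and Igfbp6 had 979.9 ± 255 TPM in KD and 1057 ± 117 TPM in RE (SD, n = 4 each; adjusted p = 0.69).

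The other large falls were of varied function. Ptx3, a secreted pentraxin, had 88.9, 84.3, 35 and 76.9 TPM in KD 1 to KD 4 and 6.59, 32.2, 18.8 and 10.8 TPM in RE 1 to RE 4. Mark1, a microtubule affinity regulating kinase, had 52.5, 65, 28.6 and 36.1 TPM in KD 1 to KD 4 and 4.09, 19.5, 15.5 and 6.30 TPM in RE 1 to RE 4. Agt, angiotensinogen, had 167, 191, 224 and 170.1 TPM in KD 1 to KD 4 and 30.8, 58, 90.1 and 29.3 TPM in RE 1 to RE 4. In these 3 genes, as in Stc1 and Hsd11b1, RE 1 and RE 4 were the lowest RE libraries, an order found in 7 of the 12 largest falls. Among those 12, RE 1 was the lowest RE library in 10 and RE 2 the highest in 10. Such orders were not counted over all genes, and their relation to the length split was not tested. Their fold changes were -2.13 (adjusted p = 0.0376), -2.07 (adjusted p = 0.0376) and -1.98 (adjusted p = 0.0376). None of the 3 was called after median scaling (adjusted p = 0.0697, 0.081 and 0.117), and Mark1 was not called after the length correction (adjusted p = 0.0582). Mark1 in RE 2, RE 3 and RE 4 stayed above the control libraries (4.14 to 4.64 TPM), while Agt in RE overlapped theirs (43.2 to 131 TPM).

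Hsd11b1, which regenerates active glucocorticoid, had 105, 136, 127 and 103 TPM in KD 1 to KD 4 and 23.5, 47.6, 47 and 26.7 TPM in RE 1 to RE 4, and was called in 22 of 27 fits (log2 fold change -1.73, SE 0.24, adjusted p = 0.00907). The control libraries, at 38 to 62 TPM, were level with RE 2 and RE 3. Nr4a2, an orphan nuclear receptor induced by many stimuli, had 134, 96.5, 64.3 and 69.1 TPM in KD 1 to KD 4 and 13, 45.4, 12.9 and 29.8 TPM in RE 1 to RE 4 (log2 fold change -1.94, SE 0.38, adjusted p = 0.0376). RE 1 and RE 3 were its lowest libraries and the groups did not overlap. Gpm6b, a membrane proteolipid, had 141, 139, 73.2 and 103 TPM in KD 1 to KD 4 and 18.4, 49.3, 37.7 and 35.2 TPM in RE 1 to RE 4 (-1.70 (adjusted p = 0.0311)). Ranbp3l, a Ran-binding protein, had 363, 330.3, 112 and 255 TPM in KD 1 to KD 4 and 52.2, 82.9, 91.5 and 79.9 TPM in RE 1 to RE 4 (-1.68 (adjusted p = 0.0376)). In both genes KD 3 was the lowest KD library and was still above RE. Nkd2, an inhibitor of Wnt signalling, went from 30.9 ± 6.23 to 9.94 ± 3.70 TPM (-1.57 (adjusted p = 0.0137)), Inhbb, an activin subunit, from 19.4 ± 3.58 to 6.49 ± 3.47 TPM (-1.53 (adjusted p = 0.0344)), Pfkfb3, which raises glycolytic flux, from 42.6 ± 13.9 to 16 ± 4.44 TPM (-1.33 (adjusted p = 0.0349)), and Csrp1, a LIM protein, from 542 ± 74.2 to 356 ± 12.1 TPM (-0.60 (adjusted p = 0.0429); SD, n = 4 each). For each of these 4 lists of Wnt, activin, glycolysis and smooth muscle genes, that gene was the 1 member called, beside 1.04% of all tested genes. Nkd2 stayed called after both corrections, and Inhbb (adjusted p = 0.0576) and Csrp1 (-0.24, adjusted p = 0.492) were lost after median scaling. Hsd11b1 (adjusted p = 0.0833) and Ranbp3l (adjusted p = 0.0712) were also lost there, and Pfkfb3 was lost after both (adjusted p = 0.0763 and 0.0734).

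Of 23 tested acute phase, complement and antimicrobial genes, 3 were called lower and none higher, beside 0.858% of all tested genes lower. C3, the central complement protein, had 746, 662, 344 and 517 TPM in KD 1 to KD 4 and 110.4, 266, 232 and 164 TPM in RE 1 to RE 4. C1s1, a protease of the first complement component, had 964, 928, 772 and 866 TPM in KD 1 to KD 4 and 365, 548, 397 and 501 TPM in RE 1 to RE 4, and C1ra, its partner, 354, 341, 304 and 365 TPM in KD 1 to KD 4 and 188, 236, 245 and 194 TPM in RE 1 to RE 4. RE and KD were apart in all 3, and RE 1 was the lowest RE library in each. Their fold changes were -1.57 (adjusted p = 0.0376), -0.98 (adjusted p = 0.0338) and -0.66 (adjusted p = 0.0369), and of the 3 only C1s1 was called after the length correction (adjusted p = 0.00634). None was called after median scaling (adjusted p = 0.076 for C3, 0.0626 for C1s1 and 0.403 for C1ra). The list's median was -0.55 on TPM and -0.50 after the length correction. Saa3, an abundant acute phase protein, had 14009 ± 909.7 TPM in KD and 14740.5 ± 12510.4 TPM in RE, and Hp, haptoglobin, 1331 ± 191 and 2143 ± 1643 TPM (SD, n = 4 each; adjusted p = 0.74 and 0.6).

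No member of 35 tested interferon response and class I presentation genes passed on the TPM scale, though 22 were lower and 1 higher at an unadjusted p below 0.05. The list's median was -0.83, and it stayed at -0.57 after the length correction and -0.80 without RE 1 and RE 3, beside 0.01 and -0.10 for all genes. Oas1a, an oligoadenylate synthetase, had 15.8 ± 5.58 TPM in KD and 3.91 ± 2.49 TPM in RE, and Usp18, which removes ISG15, 11.9 ± 6.93 and 1.97 ± 1.53 TPM (SD, n = 4 each; adjusted p = 0.061 and 0.074). After the length correction Oas1a and B2m were called lower, beside 1.06% of all genes on that scale. Trim30a, an interferon-inducible TRIM protein outside that list, had 19.7, 21.5, 11 and 19.7 TPM in KD 1 to KD 4 and 2.71, 5.53, 2.93 and 4.89 TPM in RE 1 to RE 4, called on all 3 scales (log2 fold change -1.92, SE 0.37, adjusted p = 0.0369). Oas1g, a paralogue of Oas1a whose reads may be shared with it, had 4.37, 5.43, 4.74 and 8.28 TPM in KD 1 to KD 4 and 0.205, 0.129, 1.31 and 0.0925 TPM in RE 1 to RE 4 (log2 fold change -2.27, SE 0.27, adjusted p = 0.00415). In both genes every RE library was below every KD library.

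None of 28 tested genes of the JNK cascade and AP-1 was called on the TPM scale, after median scaling or after the length correction, and 9 were lower and 3 higher at an unadjusted p below 0.05. Of all 11774 tested genes 1.04% were called on the TPM scale, and 2549 were lower and 749 higher at that unadjusted p. The kinases Mapk8 and Mapk9 had 8.93 ± 0.603 and 39.9 ± 7.86 TPM in KD and 7.85 ± 2.96 and 26 ± 6.87 TPM in RE (SD, n = 4 each; adjusted p = 0.62 and 0.17). The list's median was -0.42, -0.06 after median scaling and -0.03 after the length correction, near those of all genes. Respiratory chain genes had a median of 0.32 with none of 39 called by limma (19 higher at an unadjusted p below 0.05) and 33 of 39 above 0, and 0.26 after the length correction, when Cyc1, Atp5c1 and Atp5f1 were called higher. On that scale 0.965% of all genes were called higher. The respiratory chain genes are short, with a list median of 1445 bases. Cholesterol and fatty acid synthesis genes had a median of -0.60 (-0.22 after the length correction) with none of 28 called on either scale, and 15 lower at an unadjusted p below 0.05. Inflammation and NF-kB target genes had a median of -0.27 with none of 29 called (7 lower at an unadjusted p below 0.05, near the share of all genes). Ccl2, an abundant chemokine, was at 5557 ± 408 TPM in KD and 4225 ± 726 TPM in RE (SD, n = 4 each; adjusted p = 0.16).

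**Figure D4:**
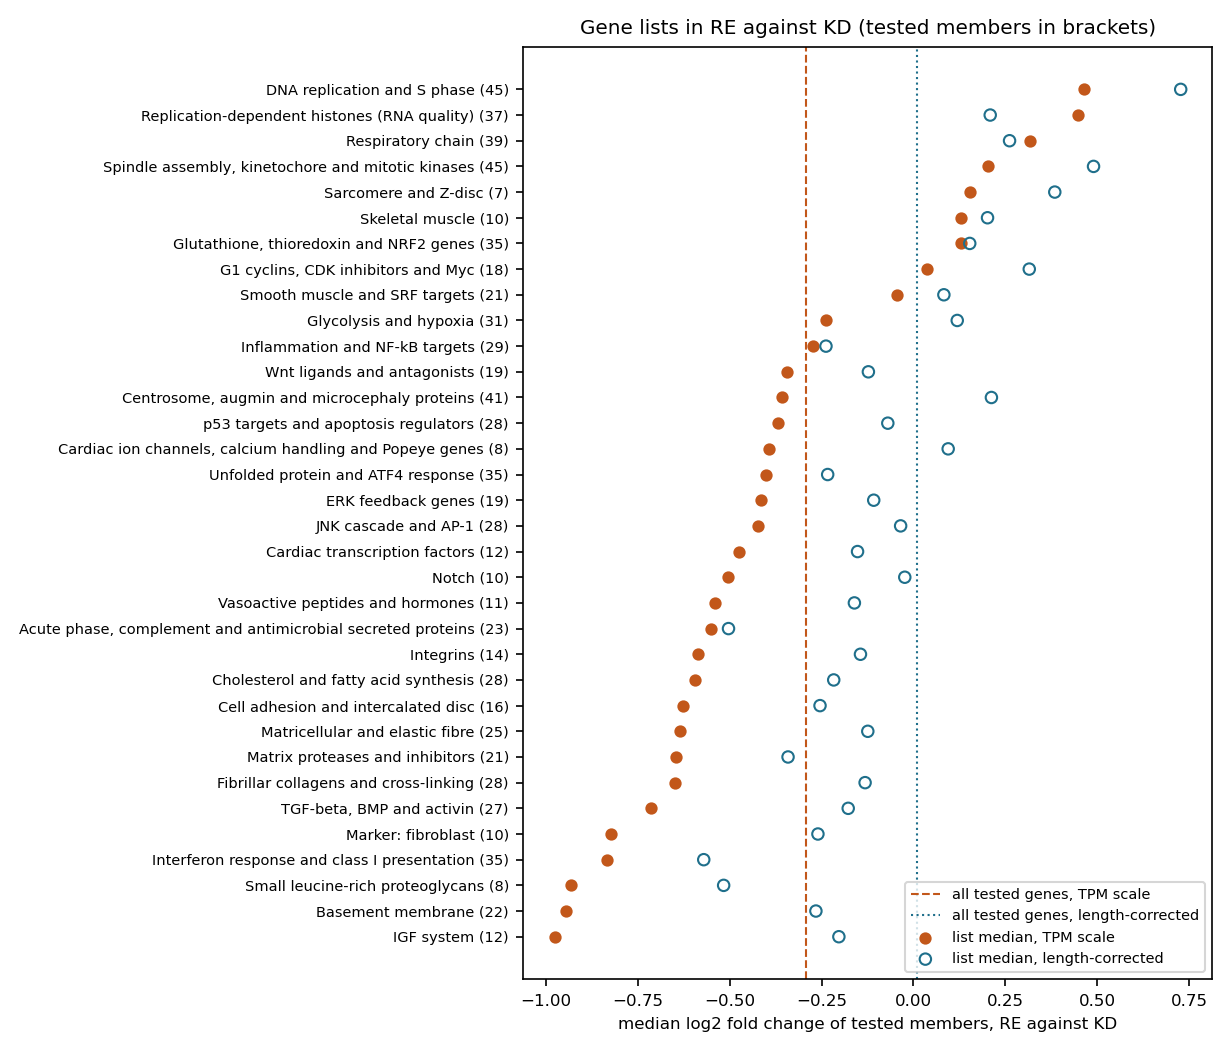
Median log2 fold change of RE against KD (x axis) of each gene list with at least 5 tested members (y axis, number tested in brackets), on log2(TPM + 1) (filled orange) and after the transcript length correction (open blue), with lines at the medians of all tested genes, -0.29 and 0.01. DNA replication (0.46 and 0.73) lies above both lines and the small leucine-rich proteoglycans (-0.93 and -0.52) and interferon genes (-0.83 and -0.57) below both, while basement membrane genes move from -0.95 to -0.27.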

How the data were processed

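RNA from 12 libraries labelled HL-1 (4 CON, 4 KD, 4 RE) was sequenced. The authors deposited 1 table of TPM values per gene, and per the submitters' processing notes they used Trim Galore 0.6.6, TopHat2 2.1.1, Cufflinks 2.2.1 and mm10. No source used here gives how TPM, strand or gene models were set. TPM keeps no read depth, so no counting interval is given. Control columns are named WT1 to WT4 in the file and were used as 4 replicates of CON.

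Genes averaging 1 TPM or more were fitted with limma 3.58.1 (R 4.3.3) on log2(TPM + 1) over all 12 libraries with a mean per group and a trended prior. RE was contrasted with KD, and p-values are two-sided, Benjamini-Hochberg adjusted over 11774 genes. Median scaling and a loess correction (span 0.5) on the longest GENCODE M21 transcript were run beside it. The fit was checked before use on simulated data with 200 changed genes, independent noise per gene and no transcript length trend. It recovered 38% of log2 changes of 1 and 88% of log2 changes of 2, with 5 false calls among 131. A gene not called may therefore still differ. The check does not cover the length differences between these libraries.

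Named genes are Wdr62, 5 genes given for this comparison by an earlier account, the 12 largest rises and falls at a mean of at least 5 TPM, the 6 largest each way at a mean of at least 100 TPM, and up to 4 called members per list, all called, without overlap and with the same sign after median scaling. Unnamed clones were left out. The members and all 39 gene lists were chosen with earlier results of these data known. No set test was run. Lists with no member called and not described above are Notch, p53 targets, ERK feedback, G1 cyclins, the unfolded protein response, glutathione and NRF2 genes, and epithelial, neuronal and glial markers. Promoters are RefSeq entries, matched for 41 of the 50 named genes.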

Additional observations from a re-analysis of the deposited data

Results flagged for a closer look

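In 100 groups of 4 libraries (50 named genes in KD and in RE), 4 had 1 library far from its fellows, a gap to the nearest of them that took up most of the group's range, and chance flags about 1 in 20 groups. Ptx3 in KD 3 was at 35.0 TPM, while the other KD libraries were at 76.9 to 88.9 TPM. Trim30a in KD 3 was at 11 TPM, beside 19.7 to 21.5 TPM. Col1a1 in KD 4 was at 41.8 TPM, beside 61.8 to 64.4 TPM. Itga10 in KD 2 was at 22.1 TPM, beside 17.4 to 18.02 TPM. In each case the library still lay above all RE libraries.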

How the results depend on the processing

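All 49 named genes other than Wdr62 kept their sign in every fit that tested them, while the number of calls moved widely. These genes were named for groups without overlap and the same sign after median scaling. Their sign on the TPM scale is then fixed when libraries are left out, so the kept signs are no added support. Against 123 genes (22 higher, 101 lower), the totals were 41 (22 lower) with median scaling, 78 (46 lower) with median-of-ratios scaling, 237 (113 higher) with the length correction, 49 (10 and 39) with KD and RE libraries only, 5305 (1364 and 3941) with array weights and 79 (11 higher) at a log2 fold change of at least 1. Quantile normalization gave 67 higher, and a minimum of 5 TPM gave 66 lower. Without RE 1 and RE 3 there were 4 (2 and 2), 8 (4 and 4) when median scaling was added, a choice made after seeing the data, and 50 (34 lower) when WT4 was left out as well.

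Leaving out 1 library gave 13 to 2791 calls (2 to 453 higher, 11 to 2338 lower). Single KD or RE libraries gave 13 (without KD 2) to 517 (without RE 2), with 15 without KD 1, 418 without KD 3, 22 without KD 4, 16 without RE 1, 48 without RE 3 and 22 without RE 4. Control columns gave 36 (7 and 29) without WT1, 32 (7 and 25) without WT2, 27 (5 and 22) without WT3 and 2791 (453 and 2338) without WT4. Wdr62, at -0.0947 to 0.157 when 1 library was left out, changed sign without KD 4 (-0.011), RE 1 (-0.0038) and RE 4 (-0.0947). A control column enters the estimate of the spread and not the RE or KD mean. Leaving 1 out therefore kept every RE minus KD fold change (median -0.29), and the control column totals moved through the spread alone. Otherwise, except where fewer libraries or genes enter by construction, the cause was not tested.

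The replicate numbers share no stated source. Same-numbered KD and RE libraries correlated in their deviations at -0.554, 0.652, 0.239 and -0.252, so the numbers were not taken to pair them. With the replicate block, 2021 genes were called (259 higher, 1762 lower), and with the block and the length correction 7 (3 and 4).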
